A study of Homo sapiens with 12 samples.

Results

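The starts of 8 p53 and DNA damage response genes were examined for acetylation (H3K9ac) and dimethylation (H3K9me2) of lysine 9 of histone H3. The members were chosen by gene and position, as hg19 windows of 5 kb either side of the starts of CDKN1A, GADD45A, GADD45B, BTG2, SESN2, DDB2, MDM2 and PPM1D, and no measured value entered the rule. All 8 windows, of 10001 bp each, held H3K9ac peaks. They were set beside 21110 tiles of 10 kb on 23 chromosomes that held a reproducible H3K9ac region of either condition. The cells were MDA-MB-231, a human triple negative breast adenocarcinoma line. The treated group received DETA/NO, a slow nitric oxide donor, at 500 µM for 24 h, and the other group was left untreated; the labels give overnight serum starvation as part of 1 protocol for all samples. Chromatin immunoprecipitation and sequencing gave 2 biological replicates per condition and mark, and the untreated libraries served as the control for changes in where each mark lay.

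The protein p53 is a transcription factor that accumulates after DNA damage and other stress and turns on genes for growth arrest, repair, metabolic adjustment and its own restraint. MDA-MB-231 cells carry a mutant p53, and CDKN1A, the GADD45 genes and SESN2 are known to respond to other stress pathways as well. H3K9ac is found at active promoters, usually on both sides of a gap at the start itself, and H3K9me2 marks broad silent domains. Of these genes, CDKN1A, GADD45A, GADD45B and BTG2 restrain the cell cycle, SESN2 restrains mTOR signalling under stress, DDB2 recognises ultraviolet damage in DNA, and MDM2 and PPM1D encode a ubiquitin ligase and a phosphatase that hold p53 in check.

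The RefSeq promoter table, on build GRCh38.p14, held sequences from 250 bases before to 50 bases after the start for 7 of the 8 genes, all on the plus strand; GADD45A was the gene not matched. The promoters of CDKN1A, MDM2, DDB2 and GADD45B are shown because the H3K9ac peaks compared lie around such starts and because these 4 genes differ in the motifs they hold. Their coordinates are on GRCh38.p14 and were not converted to hg19. CDKN1A (chr6:36678464-36678763) has 4 matches to the GC box GGGCGG, 2 of which overlap. MDM2 is listed with 4 starts in 2 clusters, and the first start (chr12:68807922-68808221) lies 845 bases before the third (chr12:68808767-68809066). DDB2 is listed with 2 starts, 520 bases apart (chr11:47214204-47214503 and chr11:47214724-47215023). GADD45B (chr19:2475877-2476176) is the member with a match to the TATA box TATAAA, with its first base at position -31. Capitals mark the GC box in CDKN1A and MDM2, CCAAT in the first DDB2 sequence, matches to the p53 half-site in the second DDB2 sequence, and TATAAA in GADD45B.
CDKN1A: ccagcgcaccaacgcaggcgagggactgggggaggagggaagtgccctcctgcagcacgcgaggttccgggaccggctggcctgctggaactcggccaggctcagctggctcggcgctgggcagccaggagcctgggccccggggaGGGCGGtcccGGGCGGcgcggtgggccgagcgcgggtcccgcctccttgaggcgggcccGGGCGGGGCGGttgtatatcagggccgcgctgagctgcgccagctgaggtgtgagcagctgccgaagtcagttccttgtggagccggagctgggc
MDM2 start 1: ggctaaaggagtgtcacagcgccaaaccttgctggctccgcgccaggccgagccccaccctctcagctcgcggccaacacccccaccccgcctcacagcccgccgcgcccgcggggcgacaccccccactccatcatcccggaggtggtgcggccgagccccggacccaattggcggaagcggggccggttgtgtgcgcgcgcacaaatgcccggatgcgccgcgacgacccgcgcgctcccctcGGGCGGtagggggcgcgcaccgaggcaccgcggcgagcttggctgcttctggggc
MDM2 start 3: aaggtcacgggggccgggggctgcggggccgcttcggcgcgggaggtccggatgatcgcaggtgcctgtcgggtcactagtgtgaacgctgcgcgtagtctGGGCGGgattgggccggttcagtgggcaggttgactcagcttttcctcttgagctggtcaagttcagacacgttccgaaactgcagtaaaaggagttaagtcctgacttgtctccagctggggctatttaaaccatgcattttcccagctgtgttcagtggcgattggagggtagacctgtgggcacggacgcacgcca
DDB2 start 1: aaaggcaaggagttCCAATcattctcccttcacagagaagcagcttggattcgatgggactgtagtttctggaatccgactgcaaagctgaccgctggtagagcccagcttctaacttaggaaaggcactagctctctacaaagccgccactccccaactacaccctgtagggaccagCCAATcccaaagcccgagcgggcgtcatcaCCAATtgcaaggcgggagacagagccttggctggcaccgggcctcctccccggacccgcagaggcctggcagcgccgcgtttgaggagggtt
DDB2 start 2: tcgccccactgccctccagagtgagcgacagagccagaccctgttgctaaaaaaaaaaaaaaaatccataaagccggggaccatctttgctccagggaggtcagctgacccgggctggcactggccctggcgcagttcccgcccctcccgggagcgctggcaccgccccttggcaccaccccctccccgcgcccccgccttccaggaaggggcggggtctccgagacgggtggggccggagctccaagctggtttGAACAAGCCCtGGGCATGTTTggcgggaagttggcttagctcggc
GADD45B: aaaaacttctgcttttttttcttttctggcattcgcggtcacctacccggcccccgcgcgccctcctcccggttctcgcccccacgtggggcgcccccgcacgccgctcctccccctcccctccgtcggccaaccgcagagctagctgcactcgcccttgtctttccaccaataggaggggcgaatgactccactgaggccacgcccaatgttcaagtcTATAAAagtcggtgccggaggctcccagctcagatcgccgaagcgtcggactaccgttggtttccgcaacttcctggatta

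Motifs were searched on both strands in these windows and in all 35116 promoters of the table. The p53 half-site RRRCWWGYYY was found as an exact match in the second DDB2 promoter and in no other promoter window of the 7 genes. Its 2 matches begin at positions 6 and 17, counted from 1 at the start base. It is present in 6.63% of all promoters. GGGCGG was found in 6 of the 7 genes, with GADD45B the gene without a match, and in 45.0% of all promoters. CCAAT was found in 6 of the 7 genes, with CDKN1A the gene without a match, and in 34.6% of all promoters. A gene was counted if any of its listed starts held a match, whereas the percentages are of single promoters. DDB2 held GGGCGG only at its second start and CCAAT only at its first. TATAAA is present in 11.5% of all promoters. TGANTCA, the AP-1 motif (7.71% of all promoters), was found at the 2 later MDM2 starts, and CACGTG, an E-box (7.26%), in GADD45B. These matches describe letters in a window of 300 bases and not binding. No mismatch was allowed, so p53 sites that differ from RRRCWWGYYY, at MDM2 or elsewhere, were not searched for. Sites outside the window were not searched for either.

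The H3K9ac lists held 79538 and 69151 peaks in the treated libraries and 120630 and 59724 in the untreated ones, with replicate 1 given before replicate 2 here and throughout. The summed peak length was 52.1 and 37.8 Mb in the treated libraries and 48.3 and 22.8 Mb in the untreated libraries. Read depth is unknown, since the lists hold positions and the caller's scores and no counts, and they cannot tell more of the mark per cell from the mark in more cells. The cell line was not checked against marker genes and other p53 target genes were not analysed here, because no gene annotation on hg19 was used.

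H3K9ac covered more of the window in both treated libraries than in both untreated libraries at all 8 gene starts, with no scaling of the lists. The difference in mean covered length ran from 421.5 bp at BTG2 to 2237.5 bp at GADD45A, with a median of 1627.5 bp over the 8 genes. The same held widely: in 75.7% of the 21110 tiles, and in 81.7% of the 12197 tiles that held a reproducible region in both conditions, both treated libraries also lay above both untreated ones. Both treated libraries lay below both untreated ones in 3.1% of the 21110 tiles, in 0.418% of the 12197 tiles and at none of the 8 starts. In limma, fitted to 21118 tiles and windows together, 0 of the 8 starts and 0 tiles were called at an adjusted p under 0.05 (0% called in either direction). At an unadjusted p under 0.05, limma had 5 of the 8 starts and 37.9% of all tiles and windows higher in treated cells, and 2.28% lower. The calls depended on the tiles fitted: with the tiles that held a region of both reproducible sets, CDKN1A, GADD45A, SESN2 and DDB2 were called higher (limma adjusted p from 0.0087 to 0.041), beside 30.6% of all tiles and windows. The exact two-sided permutation test of 2 libraries against 2 gave p = 0.333 at each of the 8 starts, the smallest p that it allows. With each list scaled to the same total covered length, the conditions did not overlap at 4 of the 8 starts, namely CDKN1A, SESN2, DDB2 and MDM2, and treated libraries were higher without overlap in 50.6% of all tiles and windows. Under that scaling the difference at GADD45B was negative, at -2.71 percentage points of the window. After quantile normalization 2 of the 8 starts, SESN2 and DDB2, were higher in treated libraries without overlap, beside 22% of all tiles and windows. In windows of 2 kb either side this held at 7 of the 8 starts, all but CDKN1A, beside 76.4% of all tiles and windows of that size.

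**Figure D1:**
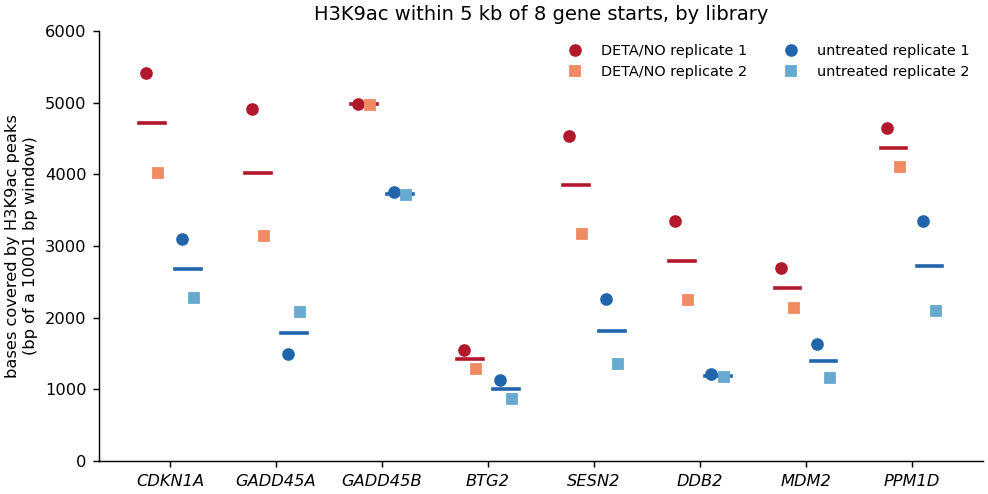
Bases covered by H3K9ac peaks in the 10001 bp window around each start, for the DETA/NO libraries (red) and the untreated libraries (blue), with points for single libraries and bars for the mean of 2. At all 8 starts both DETA/NO points sit above both untreated points, from 158 bp apart at BTG2 to 1222 bp at GADD45B; at GADD45B the difference turned negative when lists were scaled to equal length, and at GADD45B, BTG2, MDM2 and PPM1D it did so after quantile normalization.

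Among the growth arrest genes, CDKN1A, which encodes the cyclin-dependent kinase inhibitor p21, had some of the widest acetylated stretches. H3K9ac peaks covered 5420 and 4021 bp of its window in the treated libraries and 3098 and 2269 bp in the untreated libraries. The groups did not overlap, and the lower treated library stood 923 bp above the higher untreated one; in windows of 2 kb, and after quantile normalization, they overlapped. Mean covered length was 4720.5 bp ± 989 in treated and 2683.5 bp ± 586 in untreated cells (SD, n = 2), a ratio of 1.76 (limma adjusted p = 0.091). The reproducible region over the start ran from 652 bp before to 4605 bp after it in treated cells, at 36645807 to 36651064 on chromosome 6, against 325 bp before to 2477 bp after it in untreated cells. In RefSeq the lncRNA genes PANDAR and DINOL neighbour the CDKN1A start, and peaks carry no strand, so acetylation before the start cannot be assigned to 1 gene. The peaks farthest before the start were small and were each found in 1 library, namely a peak of 130 bp ending 1097 bp before it in treated replicate 1 and one of 259 bp ending 1386 bp before it in untreated replicate 2.

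GADD45A and GADD45B encode related stress sensors that bind cell cycle and kinase proteins. GADD45A had 4908 and 3138 covered bp in the treated libraries and 1488 and 2083 bp in the untreated libraries, a ratio of means of 2.25 (limma adjusted p = 0.075). It was the start at which untreated replicate 2 had more coverage than untreated replicate 1, unlike the other 7. The difference at GADD45A came to 22.4 percentage points of the window, the largest of the 8 with all 4 libraries and no scaling. It was 13.5 without treated replicate 1, below the 13.8 of PPM1D and the 13.7 of SESN2. DDB2 had the largest difference in windows of 2 kb, at 38.8 percentage points, and SESN2 with lists scaled to equal length, at 13.0. After the GADD45A start the main peak reached 3696 and 1616 bp in the treated libraries, against 1497 and 1461 bp in the untreated libraries. GADD45B had 4982 and 4973 covered bp in the treated libraries and 3751 and 3710 bp in the untreated libraries, the most of all 8 starts in untreated cells. Its libraries lay close together within each condition, at 4977.5 bp ± 6.36 in treated and 3730.5 bp ± 29.0 in untreated cells (SD, n = 2), and its ratio of 1.33 was the lowest of the 8 with all 4 libraries (limma adjusted p = 0.171). The direction at GADD45B depended on scaling, as the difference was -2.71 percentage points with lists scaled to equal length and -9.98 after quantile normalization.

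BTG2, an antiproliferative gene that acts on mRNA deadenylation, had the least H3K9ac of the 8 starts in every library. Its peaks covered 1554 and 1285 bp in the treated libraries and 1127 and 869 bp in the untreated libraries. The groups were separated by 158 bp, less than the SDs of 190 bp in treated and 182 bp in untreated cells (n = 2), and the limma adjusted p was 0.387. After the start the acetylated stretch ended at nearly the same place in all libraries, 996 and 964 bp into the gene in the treated libraries and 947 and 834 bp in the untreated libraries. Most of the difference lay before the start, where 557 and 320 bp were covered in the treated libraries and 238 and 34 bp in the untreated libraries. The lncRNA gene BTG2-DT neighbours BTG2 in RefSeq, and the peaks do not show to which of the pair this acetylation belongs. After quantile normalization the difference over the whole window was -4.25 percentage points.

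SESN2, the stress-induced restrainer of mTOR signalling, had no covered base before its start in either untreated library. Coverage before the start was 882 and 488 bp in the treated libraries and 0 and 0 bp in the untreated libraries. Over the whole window peaks covered 4533 and 3174 bp in the treated libraries and 2268 and 1348 bp in the untreated libraries, a ratio of 2.13 (limma adjusted p = 0.078). No library had a peak over the SESN2 start base itself. The reproducible region began 2 bp after the start in treated cells and 93 bp after it in untreated cells, and it measured 3240 bp in the treated set and 2037 bp in the untreated set.

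DDB2, the damage recognition gene whose second promoter carries the paired p53 half-sites shown above, had the highest ratio of the 8 with all 4 libraries and no scaling. Its peaks covered 3348 and 2241 bp in the treated libraries and 1211 and 1171 bp in the untreated libraries. The groups were 1030 bp apart, with a ratio of means of 2.35 (limma adjusted p = 0.076). In both treated libraries a single peak ran across the start without a gap, from 1346 bp before to 1377 bp after it in replicate 1 and from 930 bp before to 1310 bp after it in replicate 2. Untreated replicate 1 also had 1 peak across the start, from 561 bp before to 649 bp after it, whereas untreated replicate 2 had 3 short peaks and none over the start base.

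The feedback genes MDM2 and PPM1D had covered bases on both sides of the start in every library, as did CDKN1A, GADD45B, BTG2 and DDB2. MDM2 was covered over 2697 and 2140 bp in the treated libraries and 1628 and 1152 bp in the untreated libraries, and the groups lay 512 bp apart (ratio 1.74, limma adjusted p = 0.129). Treated replicate 1 had 1 unbroken peak there, from 1146 bp before to 1550 bp after the hg19 start. In the RefSeq table the later MDM2 starts lie 845 and 852 bases after the first, a spacing read on another build. PPM1D was covered over 4647 and 4098 bp in the treated libraries and 3353 and 2089 bp in the untreated libraries (ratio 1.61, limma adjusted p = 0.111). Coverage at PPM1D was made of 1 and 3 peaks in the treated libraries and of 2 and 5 peaks in the untreated ones. After quantile normalization the differences were -0.319 percentage points at MDM2 and -0.952 at PPM1D.

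**Figure D2:**
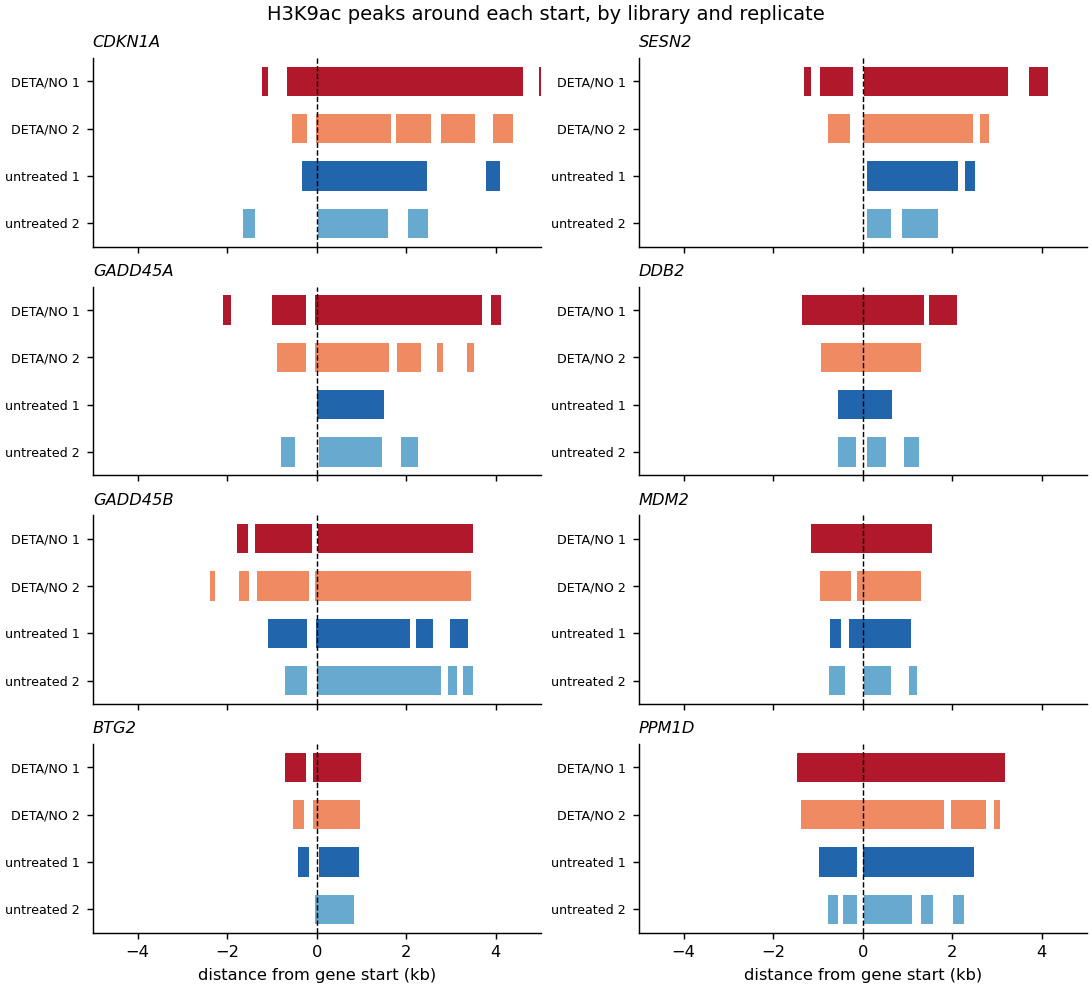
H3K9ac peaks of each library within 5 kb of the 8 gene starts, as bars against distance from the start in kb (dashed line at 0, transcription to the right), with the DETA/NO libraries above the untreated ones. The farthest main peak reaches 4605 bp after the start at CDKN1A in DETA/NO replicate 1, and at BTG2 peaks end within 1 kb after the start in all 4 libraries.

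Ordered by mean covered length in treated cells, the starts ran GADD45B, CDKN1A, PPM1D, GADD45A, SESN2, DDB2, MDM2 and BTG2. From GADD45B to SESN2 the means lay between 4977.5 and 3853.5 bp, and neighbouring genes in this stretch differed by less than the larger of their SDs. DDB2 at 2794.5 bp ± 783 and MDM2 at 2418.5 bp ± 394 likewise did not differ beyond their spread, and BTG2 at 1419.5 bp ± 190 (SD, n = 2) stood below every other gene. In untreated cells the order was GADD45B, PPM1D, CDKN1A, SESN2, GADD45A, MDM2, DDB2 and BTG2. PPM1D and CDKN1A, at 2721 bp ± 894 and 2683.5 bp ± 586, did not differ there beyond their spread, nor did SESN2 and GADD45A, at 1808 bp ± 651 and 1785.5 bp ± 421 (SD, n = 2). MDM2 and DDB2, at 1390 bp ± 337 and 1191 bp ± 28.3 (SD, n = 2), were not separated in untreated cells either.

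As a ratio of treated over untreated means, the 8 starts ran from 1.33 to 2.35 with a median of 1.75. The tiles with a reproducible region in both conditions had a median ratio of 1.71, and their quartiles were 1.44 and 2.10. DDB2, GADD45A and SESN2 were above that range, CDKN1A, MDM2 and PPM1D inside it, and BTG2 and GADD45B below it. The place of a start depended on the tiles: those with a region in either condition had a median ratio of 1.83 and quartiles of 1.46 and 2.61. This ratio could be formed in 19415 of the 21110 tiles. No start was above that wider range, and BTG2 and GADD45B were below it. In covered length the median difference was 1627.5 bp over the 8 windows and 926.5 bp over the tiles with a region in both conditions. The windows are centred on gene starts and the tiles are not, so lengths compare less directly than ratios. Over all tiles and windows the median difference was 7.73 percentage points as deposited, 4.10 with lists scaled to equal length and -0.40 after quantile normalization. Over the 8 starts the median was 16.3 percentage points as deposited, 8.36 with lists scaled to equal length and 0.877 after quantile normalization.

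**Figure D3:**
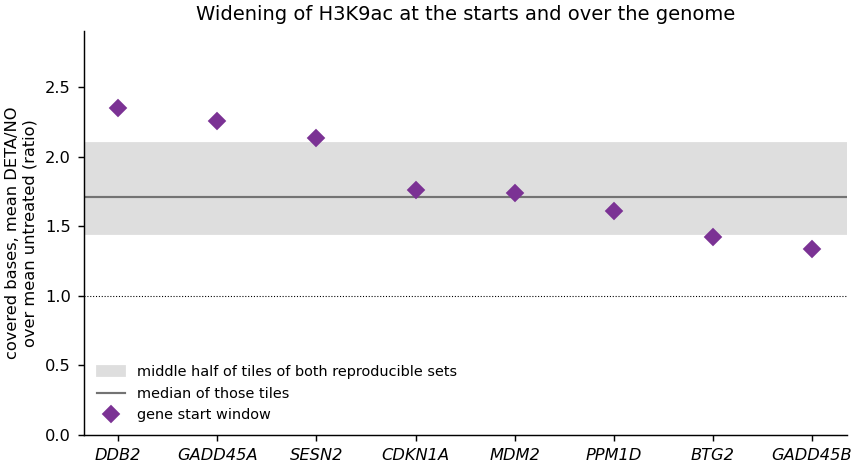
Ratio of mean covered H3K9ac bases, DETA/NO over untreated, in the window of each gene start (diamonds), beside the median (line, 1.71) and interquartile range (band, 1.44 to 2.10) of the 12197 tiles of 10 kb with a reproducible region in both conditions. DDB2, GADD45A and SESN2 lie above the band and BTG2 and GADD45B below it. No start lies above the quartiles of tiles with a region in either condition, 1.46 and 2.61, which are not drawn. The direction at GADD45B, BTG2, MDM2 and PPM1D turned under quantile normalization, and that at GADD45B also with lists scaled to equal length.

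Seen from the start, the mark lay mostly inside the genes. Of the covered bases in the 8 windows, 73.0% and 73.9% were on the transcribed side in the treated libraries, against 80.9% and 83.7% in the untreated libraries. The conditions did not overlap in this share, for which 2 libraries against 2 allow no exact p below 0.333. Covered bases before the start summed over the 8 genes to 8672 and 6535 in the treated libraries and to 3422 and 2389 in the untreated libraries. After the start the sums were 23417 and 18535 bases in the treated libraries and 14502 and 12302 in the untreated libraries. On each side of the start taken alone, both treated libraries had more covered bases than both untreated ones at 8 of the 8 genes with no scaling of the lists. No share over all tiles stands beside this count, since tiles have no direction; over whole tiles the share was 75.7%, and with lists scaled to equal length 4 of the 8 whole windows stayed apart. At 500 bp before the start 8 and 8 genes were covered in the treated libraries and 4 and 4 in the untreated libraries. At 3000 bp after the start 5 and 3 genes were covered in the treated libraries and 1 and 1 in the untreated libraries. These counts at single distances likewise have no share over all tiles beside them and come from unscaled lists. They are therefore not shown to be particular to these starts. The strand of GADD45A was taken from general knowledge, because it was not matched in the sequence table.

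A gap just before the start was seen in both conditions. In the 200 bp before the start, no base was covered at 1 and 1 of the genes in the treated libraries and at 2 and 4 genes in the untreated libraries. All 200 bp were covered at 4 and 2 genes in the treated libraries and at 3 and 0 in the untreated libraries, so the conditions overlapped in this measure. The start base itself lay inside a peak at 6 and 7 genes in the treated libraries and at 4 and 2 in the untreated libraries. This count too comes from unscaled lists and has no share over other gene starts beside it. From 250 to 500 bp after the start all 8 genes were covered in all 4 libraries.

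**Figure D4:**
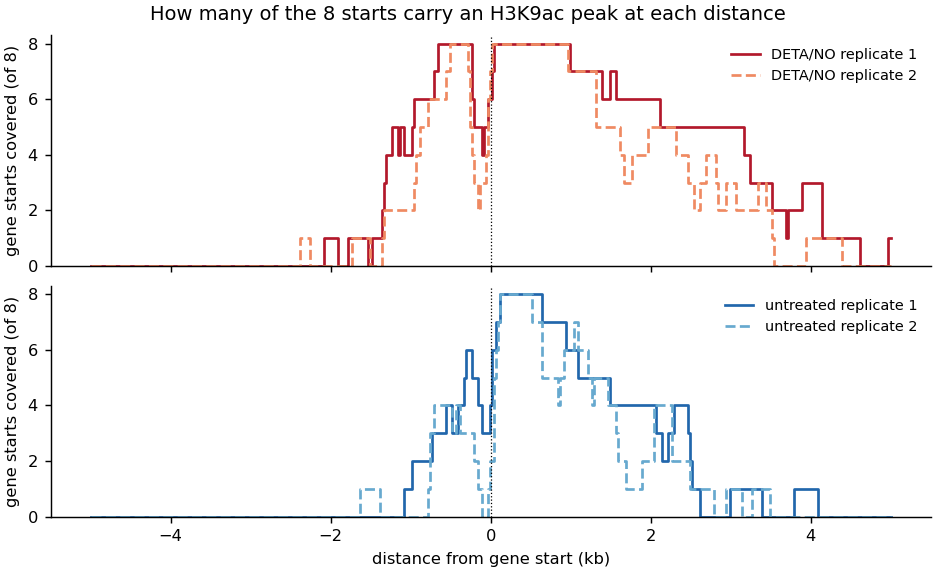
Number of the 8 gene starts covered by an H3K9ac peak at each distance from the start in kb, for the DETA/NO libraries (upper panel) and the untreated libraries (lower panel), with replicate 1 as a solid and replicate 2 as a dashed line. All 8 starts are covered 500 bp before the start in both DETA/NO libraries and 4 in both untreated libraries, and every library dips just before the start. Lists are unscaled and no other gene starts are drawn. Over whole tiles, both DETA/NO libraries lay above both untreated ones in 75.7% of the 21110 tiles.

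The authors also deposited 1 set per condition of regions called reproducible across replicates, in which the region at the start was wider in the treated set for all 8 genes. Of the 13331 untreated regions that a treated region overlapped, 96.7% had a wider treated region, so the count of 8 is near that background. CDKN1A's region measured 5258 bp in the treated set and 2803 bp in the untreated set, and PPM1D's 4647 bp in the treated set and 2484 bp in the untreated set. At GADD45A it was 3742 bp in the treated set and 1488 bp in the untreated set, the highest ratio of widths of the 8, at 2.51. BTG2 had the lowest ratio, 1.09, with 1073 bp in the treated set and 982 bp in the untreated set. The median ratio was 1.82 over the 8 genes and 1.89 over the 13331 regions. The start base lay inside a region for 7 of the 8 genes in the treated set, all but SESN2, and for 5 in the untreated set, where GADD45A, SESN2 and PPM1D fell 10, 93 and 4 bp outside. There is 1 set per condition, so widths have no replicate error.

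By the authors' peak scores, which rank peaks within 1 list, the strongest peak of each window stood high in every library. CDKN1A's top peak outscored 99.9% of the peaks in each treated list and 99.5% and 99.8% in the untreated lists. For SESN2 the shares were 99.5% and 99.9% in the treated lists and 99.7% and 96.6% in the untreated lists. BTG2 had the lowest share of the 8 in each library, with 87.4% and 87.2% in the treated lists and 89.4% and 83.6% in the untreated lists. The lists differ in length, so these ranks were not compared between conditions.

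H3K9me2 was not called at any of the 8 starts in any library. The covered share was 0% within 5 kb of every start in both treated and both untreated libraries, and also within 50 kb. Among the 21110 tiles with a reproducible H3K9ac region, 2.98% met an H3K9me2 island in at least 1 library, as did 21.2% of all 303311 tiles. By library, 1.68% and 1.11% of the H3K9ac tiles met an island in the treated libraries and 1.21% and 1.15% in the untreated libraries. Of all tiles, 13.1% and 10.2% did so in the treated libraries and 10.9% and 12% in the untreated libraries. The count of 0 among 8 starts is near that of H3K9ac tiles in general. In limma, 0 of 64218 tiles with an island were called at an adjusted p under 0.05 (0% in either direction), with 3143 at an unadjusted p under 0.05; the 8 windows, at 0 in all libraries, could not be fitted.

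The nearest island lay from 50.2 to 17572 kb away. BTG2 had an island 50.2 kb before the start in treated replicate 1 and 50.7 kb before it in untreated replicate 2, whereas the nearest island was 3640 kb away in treated replicate 2 and 3462 kb away in untreated replicate 1. The libraries thus split by neither condition nor replicate number there. PPM1D had islands after its start in all 4 libraries, 226.5 and 183.5 kb away in the treated libraries and 243.0 and 172.5 kb away in the untreated libraries. Within 500 kb of the PPM1D start, islands covered 9.20% and 3.85% in the treated libraries and 1.20% and 3.35% in the untreated libraries.

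DDB2 had its nearest island 135.0 and 118.5 kb before the start in the treated libraries, against 1019 and 981.0 kb after it in the untreated libraries. Both treated libraries were nearer, but their islands, at 47093001 to 47101500 and 47113501 to 47118000 on chromosome 11, did not overlap each other and were 8500 and 4500 bp wide. GADD45A also had nearer islands in both treated libraries, at 774.4 and 222.4 kb, against 864.6 and 893.1 kb in the untreated libraries. GADD45B was the reverse, at 13369 and 17572 kb in the treated libraries and 7354 and 7111 kb in the untreated libraries. At CDKN1A the distances were 2049.5 and 2080.5 kb in the treated libraries and 2047.5 and 2049.5 kb in the untreated libraries. At MDM2 and SESN2 the conditions overlapped. For 2 libraries against 2 the exact permutation test allows no p below 0.333. Libraries that do not differ by condition would therefore still separate at some of the starts. Whether the separations at DDB2, GADD45A and GADD45B exceed that was not tested, and no share over other positions stands beside them.

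**Figure D5:**
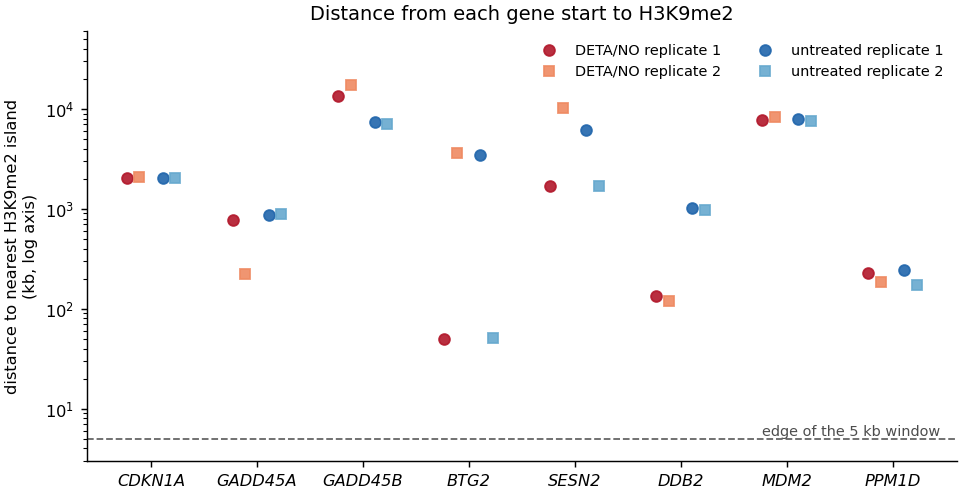
Distance from each gene start to the nearest H3K9me2 island in kb on a log axis, for the DETA/NO libraries (red) and the untreated libraries (blue), 1 point per library. Every point lies above the 5 kb window edge (dashed), the lowest at 50.2 kb for BTG2. At DDB2 and GADD45A both DETA/NO points are below both untreated points, and at GADD45B both are above. Whether these separations exceed those of libraries that do not differ by condition was not tested.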

How the data were processed

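H3K9ac and H3K9me2 were mapped in 8 libraries, and 4 inputs were not used here. Per the submitters' processing notes, Trimmomatic 0.32, BWA 0.7.5, Picard, MACS2 and SICER were used on hg19, with no roles given, and the sources used here give no settings. The authors deposited 10 interval lists: peaks or islands of single libraries with a caller's score, whose unit is not given, and 2 reproducible H3K9ac sets with a value taken here to be a −log10 irreproducible discovery rate, since its lowest value is 1.301, that of a rate of 0.05. The effect of depth on covered length was not tested. Since H3K9me2 island ends are inclusive, 1 bp was added to them. Positions are on hg19, counted from 1.

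Covered bases were counted in Python 3.11.15 with numpy 2.4.6 and pandas 2.3.3, and permutation tests used SciPy 1.17.1. The covered share, as its arcsine square root, was fitted in limma 3.58.1 (R 4.3.3) with a mean-variance trend and no covariate over tiles holding a region of either reproducible set plus the 8 windows; adjusted p is Benjamini-Hochberg over all of them. The code was tested on simulated data. The permutation p rests on the 2 biological replicates per condition at each start alone. In limma the variance of each start was drawn toward the trend over all tiles and windows. Its p therefore does not measure the spread of that start's own replicates alone. All 8 members are named in the results. The members, lists and tests were chosen with earlier results of these data known. The planned p53 target list and the naming of genes with a similar pattern were not run, as they need hg19 gene positions.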

Additional observations from a re-analysis of the deposited data

How the results depend on the processing

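At all 8 starts treated cells had the larger mean covered share under every window size, score limit and left-out library tried, and the number of starts without overlap between conditions was 8 as deposited, 7 in windows of 2 kb, 4 with lists scaled to equal length and 2 after quantile normalization. The median difference of 16.3 percentage points became 8.36 with lists scaled to equal length, 0.877 after quantile normalization, 25.2 in windows of 2 kb and 9.01 in windows of 10 kb either side. Direction turned at GADD45B (-2.71 scaled, -9.98 quantile-normalized) and, quantile-normalized, at BTG2 (-4.25), MDM2 (-0.319) and PPM1D (-0.952); quantile normalization was applied to these differences after seeing the data. In limma, 0 higher and 0 lower became 3736 and 18 with tiles of both reproducible sets, where 4 of the 8 starts passed (CDKN1A, GADD45A, SESN2 and DDB2, adjusted p from 0.0087 to 0.041, beside 30.6% of all tiles and windows), 731 and 7 with tiles of any peak and, over about the same tiles as before, 338 and 581 after quantile normalization and 3251 and 65 with equal numbers of top peaks. Leaving out 1 library gave 0 to 1728 higher and 0 to 70 lower H3K9ac calls, the highest without treated replicate 2, and 1511 and 51 without treated replicate 1. For H3K9me2 it gave 0 to 12669 higher and 0 to 2534 lower, both highest without treated replicate 2, and 762 lower without treated replicate 1; the lone library is then assumed to vary like the others. Replicate numbers are shared by the conditions, but nothing ties a number to a batch. Differences between replicates 1 and 2 in treated and in untreated cells had a correlation over tiles of -0.052 for H3K9ac and -0.078 for H3K9me2. That correlation cannot show a shift shared by all tiles. For H3K9ac the median covered length of a tile was higher in replicate 1 in both conditions. It was 1843 and 1373 bp in the treated libraries and 999 and 571 bp in the untreated libraries. With the number as a replicate block, limma called 10879 H3K9ac tiles higher and 387 lower, or 51.5% and 1.83%, and 7 of the 8 starts higher. Within 1 kb of the start 8 instead of 5 genes met an untreated reproducible region. Within 500 kb 4 starts had an H3K9me2 island in a treated and 2 in an untreated library. By library this was 3 and 3 starts in treated and 1 and 2 in untreated cells, with no share over other positions of that width. The causes of these shifts were not tested.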

Other observations

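Within the treated data, several starts ranked lower by the authors' measure of reproducibility than by their peak score. The first is the share of the 21098 treated regions with a lower −log10 irreproducible discovery rate, and the second is the share of peaks that the strongest peak of the window outscored in each treated list. CDKN1A had 28.1% by the first, with a −log10 value of 3.46, and 99.9% in each list by the second. GADD45A had 42.7% by the first and 97.8% and 95.8% by the second, and SESN2 had 59.6% beside 99.5% and 99.9%. The ranks were closer together at BTG2, with 74.7% beside 87.4% and 87.2%, and at PPM1D, with 77.8% beside 97.6% and 98.8%. MDM2 had 88.4% beside 99.0% and 98.0%, and DDB2 had 86.2% beside 91.6% and 87.2%. At GADD45B the share by reproducibility, 96.3%, lay between those by score, 96.4% and 95.0%. The reproducible treated regions also carry a score per replicate, which for replicate 2 was 39.902 at CDKN1A, 22.31 at GADD45A and 74.1 at SESN2. The strongest replicate 2 peaks there scored 150.06, 76.25 and 141.92. In each case the region's score was the mean over the replicate 2 peaks that it spanned. At CDKN1A these peaks scored 6.6, 150.06, 33.43, 5.89 and 3.53. As such a mean, the region's replicate 2 score was also below that of the strongest peak at MDM2 and PPM1D. It equalled that peak's score at GADD45B, BTG2 and DDB2, where the region spanned no other replicate 2 peak. In the untreated set the share by reproducibility was 97.2% at CDKN1A, 96.1% at GADD45A and 94.2% at SESN2. It was also higher than in the treated set at MDM2, and lower at GADD45B, BTG2, DDB2 and PPM1D. Low treated ranks at CDKN1A, GADD45A and SESN2 thus did not recur in the untreated set, and their cause was not tested. The ranks come from lists of different lengths, with no test.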
